A study of Mus musculus with 4 samples.

Results

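Resident alveolar macrophages are the phagocytes of the airspace, and 10 genes that mark them in the mouse are described here: Chil3, Ear1, Ear2, Marco, Mrc1, Siglecf, Itgax, Pparg, Atp6v0d2 and Krt79. They were chosen by name from an expression table of whole lung, and all 10 were among its 21931 genes. Alveolar macrophages take up inhaled particles and used surfactant, and they mature under GM-CSF, which induces the nuclear receptor encoded by Pparg. None of the 10 names is exclusive to these cells. Mrc1 is also expressed by interstitial macrophages, Itgax by dendritic cells, Siglecf by eosinophils, Pparg by fat cells and Atp6v0d2 by osteoclasts.

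The series examined how the lung transcriptome differs when Dnah9, which encodes a dynein heavy chain of motile cilia, is knocked out. The 4 libraries were made from total RNA of lungs of C57BL6 mice aged 2 months, with no further treatment. They comprised 2 libraries labelled as Dnah9 knockout (KO 1 and KO 2), 1 wild-type library (WT) and 1 library with the genotype label Hez, which is kept as written because the labels do not spell it out. How the allele was made, in which cells it acts, and whether each library comes from a different animal or litter cannot be read from the labels. The p-values therefore rest on the spread between these particular libraries, and that spread may be technical. The libraries held 15860478 to 16553480 reads. In lung tissue measured whole, fewer cells of a type and less RNA per cell cannot be told apart.

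The targeted gene was low in the libraries labelled KO. Dnah9 had 240 and 254 reads in KO 1 and KO 2, against 917 reads in WT and 420 reads in Hez. It fell by 1.88 on the log2 scale in KO against WT (SE 0.145, edgeR adjusted p = 0.00864), and its log2 fold against Hez was -0.73 (SE 0.152, edgeR adjusted p = 0.599). Sftpc, the surfactant protein gene of alveolar type 2 cells and a defining lung marker, had 197124 to 225679 reads per library.

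The promoter windows of 6 of these genes are shown for how alike those of Ear1 and Ear2 are and for the motif letters they hold. Each window runs from 250 bases before to 50 bases after the annotated start, 5′ to 3′ on the gene's own strand, from RefSeq on GRCm38.p6, and 9 of the 10 genes had an entry. For Ear1 (chr14:43819590-43819889, minus strand) and Ear2 (chr14:44102404-44102703, plus strand), capitals mark bases with no identical partner in the other window within the aligned stretch, which leaves out the outermost bases. For Chil3 (chr3:106167515-106167814, minus strand) capitals mark TATAAA. For Marco (chr1:120504975-120505274, minus strand), Mrc1 (chr2:14229164-14229463, plus strand) and Siglecf (chr7:43351091-43351390, plus strand) they mark GAGGAA, the core letters bound by ETS factors such as PU.1, or its complement TTCCTC.
Ear1: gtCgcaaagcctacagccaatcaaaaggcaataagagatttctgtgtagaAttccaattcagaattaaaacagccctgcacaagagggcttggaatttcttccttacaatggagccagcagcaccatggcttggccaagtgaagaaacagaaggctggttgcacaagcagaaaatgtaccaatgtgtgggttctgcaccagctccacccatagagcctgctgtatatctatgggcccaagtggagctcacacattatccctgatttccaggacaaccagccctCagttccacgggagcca
Ear2: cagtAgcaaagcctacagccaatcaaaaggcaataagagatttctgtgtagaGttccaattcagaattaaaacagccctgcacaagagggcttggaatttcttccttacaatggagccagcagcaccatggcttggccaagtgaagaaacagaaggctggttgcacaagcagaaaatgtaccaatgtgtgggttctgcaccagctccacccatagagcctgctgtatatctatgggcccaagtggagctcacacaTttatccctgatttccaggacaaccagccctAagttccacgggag
Chil3: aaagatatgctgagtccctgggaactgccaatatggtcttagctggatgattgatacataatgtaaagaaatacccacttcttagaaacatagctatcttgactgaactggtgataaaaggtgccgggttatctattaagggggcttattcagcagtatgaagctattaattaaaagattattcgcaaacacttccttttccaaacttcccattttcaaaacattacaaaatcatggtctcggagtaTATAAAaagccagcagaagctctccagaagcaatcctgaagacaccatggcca
Marco: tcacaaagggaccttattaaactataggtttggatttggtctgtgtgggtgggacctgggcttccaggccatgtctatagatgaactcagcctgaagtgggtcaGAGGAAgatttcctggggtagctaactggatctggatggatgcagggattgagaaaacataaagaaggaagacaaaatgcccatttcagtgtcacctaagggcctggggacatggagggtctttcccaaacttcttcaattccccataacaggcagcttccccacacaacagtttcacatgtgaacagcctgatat
Mrc1: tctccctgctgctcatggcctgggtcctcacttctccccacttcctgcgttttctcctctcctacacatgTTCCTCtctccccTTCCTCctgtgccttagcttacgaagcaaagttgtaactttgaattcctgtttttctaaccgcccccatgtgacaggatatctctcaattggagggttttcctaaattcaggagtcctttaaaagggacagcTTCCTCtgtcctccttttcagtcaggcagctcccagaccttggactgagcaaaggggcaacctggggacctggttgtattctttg
Siglecf: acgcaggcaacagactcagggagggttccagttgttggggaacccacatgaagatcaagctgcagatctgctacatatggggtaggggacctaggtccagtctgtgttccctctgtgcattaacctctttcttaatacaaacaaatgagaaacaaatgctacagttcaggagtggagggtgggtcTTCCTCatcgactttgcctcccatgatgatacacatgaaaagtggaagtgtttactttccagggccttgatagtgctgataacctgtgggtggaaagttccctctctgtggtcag

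The Ear1 and Ear2 windows were nearly the same sequence, with 294 identical positions over 298 aligned columns, 3 mismatches and 1 gap. The 9 genes with an entry had 11 windows, 3 of them for Pparg, and the shares over all mouse windows count windows, not genes. GAGGAA on either strand was present in 4 of the 9 genes (4 of the 11 windows) and in 28.3% of all 32851 mouse windows. These genes were Marco, Mrc1 (3 matches), Pparg and Siglecf. TATAAA, sought on the gene's strand, was found in Chil3 only among the 9 genes, and in 8.32% of all windows. The STAT letters TTCNNNGAA on either strand also occurred among the 9 in Chil3 only, against 8.30% of all windows, and the AP-1 letters TGANTCA in Itgax only, against 7.81%. The C/EBP letters TTGCNNAA were in Ear1, Ear2 and Pparg (3 of the 11 windows), against 10.8% of all windows. The receptor half-site AGGTCA was in Pparg (2 of the 11 windows), against 16.3%, and the E-box CACGTG was in none, against 7.15%. All but the TATA letters were sought on either strand, no motif contains another, and a match is a description of letters only.

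Across the 10 genes, levels lay above those of WT and Hez in most cases, by modest amounts. Both KO libraries exceeded WT for 8 of the 10 genes (33% of the 15055 tested genes did so), exceeded Hez for 9 (34.2%), and exceeded both WT and Hez for 8 (17.5%). The exceptions were Ear1 and Atp6v0d2. None lay below both WT and Hez in both KO libraries (16.3%). The fitted log2 fold was positive for 10 of 10 genes in KO against WT and in KO against Hez, where it was positive for 51.1% and 52.5% of all tested genes, although Atp6v0d2 against WT lay at 0.00115 and was negative under 9 alternatives, and Ear1 was negative in both comparisons without KO 1. Both comparisons use the same KO libraries and are not independent of each other.

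All 10 genes passed the filter on low counts, and 0 of 10 passed the threshold in the edgeR quasi-likelihood test at an adjusted p of 0.05 in any comparison. In KO against WT 8 genes of all tested (0.0531%) passed, and 2 of the 10 genes had an unadjusted p below 0.05, against 5.18% of all genes. In KO against Hez 1 gene (0.00664%) passed, and 6 of the 10 were below that unadjusted limit, against 4.61%. With WT and Hez taken as one group 2 genes (0.0133%) passed, and 4 of the 10 were below the limit, against 5.07%. DESeq2 also called 0 of the 10 in each comparison. It gave no adjusted p to Ear1, Marco, Siglecf, Pparg and Krt79 against WT or with WT and Hez as one group. Those genes could therefore not be called in these comparisons. Smallest edgeR adjusted p-values over the 10 genes were 0.445 against WT, 0.505 against Hez and 0.508 against both. The median log2 fold of the 10 genes was 0.22 in KO against WT and 0.44 in KO against Hez, beside medians over all tested genes of 0.00449 and 0.00989.

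**Figure D1:**
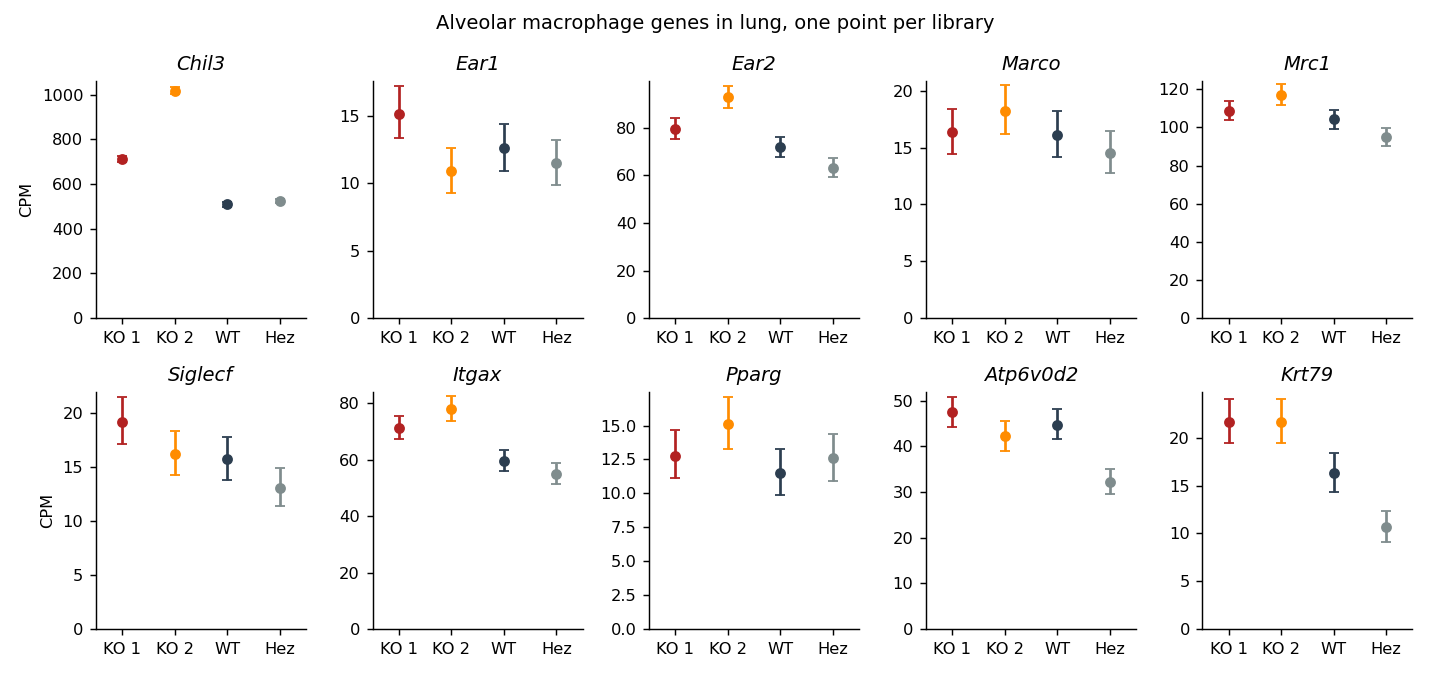
Level of each of the 10 genes (y axis, CPM, from 0) in KO 1, KO 2, WT and Hez (x axis); points are libraries and bars are 95% exact Poisson intervals of the count. Chil3 stands at 712 and 1018 CPM in the KO libraries, above 509 CPM in WT and 524 CPM in Hez, whereas Ear1 has KO 1 highest and KO 2 lowest.

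Among the secreted products, Chil3 was the most abundant of the 10 genes and the one with the largest fold against WT. Chil3 encodes the chitinase-like lectin Ym1, which binds sugars without cutting chitin, and lies on chromosome 3 from 106054870 to 106074880 on GRCm39. It had 11591 and 16182 reads in KO 1 and KO 2, against 8251 reads in WT and 8662 reads in Hez. On the CPM scale, which divides by the scaled library total, this was 712 (95% exact Poisson interval 699.5 to 726) and 1018 (1002 to 1034) CPM in KO 1 and KO 2, against 509 (498 to 520) CPM in WT and 524 (513 to 535) CPM in Hez. The groups did not overlap, but the KO libraries differed from each other 1.43-fold, about as much as KO 1 differed from WT (1.40-fold). All Poisson intervals cover counting error only. The fitted fold was 1.70 against WT (95% interval 1.27 to 2.27, log2 fold 0.76, SE 0.181, edgeR adjusted p = 0.445) and 1.65 against Hez (1.24 to 2.20, log2 fold 0.72, edgeR adjusted p = 0.717). With WT and Hez as 1 group its log2 fold was 0.74 (SE 0.145, edgeR adjusted p = 0.508), and with KO 1 left out, so that KO 2 stood alone and was assumed to vary like the others, it passed (log2 fold 0.98, edgeR adjusted p = 0.000482). With KO 2 left out instead it did not (log2 fold 0.46, edgeR adjusted p = 0.150). In KO against WT, 313 tested genes (2.08%) had a larger positive log2 fold than Chil3.

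Chil3 also took a larger share of the reads of the 10 genes in KO 2 than elsewhere. It held 64.5% and 71.2% of their summed CPM in KO 1 and KO 2, against 59.1% in WT and 63.0% in Hez. The summed level was 1105 and 1431 CPM in KO 1 and KO 2, against 862 CPM in WT and 832 CPM in Hez. Without Chil3 it was 392 and 413 CPM in KO 1 and KO 2, against 353 CPM in WT and 308 CPM in Hez. The order of the libraries was therefore the same for the other 9 genes summed.

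Ear1 and Ear2 encode eosinophil-associated ribonucleases, small secreted enzymes of the RNase A family that alveolar macrophages also make. Ear2 (chromosome 14, 44340111 to 44340991 on GRCm39) had 1295 and 1477 reads in KO 1 and KO 2, against 1165 reads in WT and 1045 reads in Hez. This was 79.6 and 92.9 CPM in the KO libraries, against 71.9 CPM in WT and 63.2 CPM in Hez. Both KO values were the higher, while the counting intervals of KO 1 (75.3 to 84.1 CPM) and WT (67.8 to 76.1 CPM) overlapped. The Ear2 log2 fold was 0.26 against WT (SE 0.122, edgeR adjusted p = 0.996) and 0.45 against Hez (SE 0.123, edgeR adjusted p = 0.810). Ear1 (chromosome 14, 44056222 to 44112974) had 247 and 173 reads in KO 1 and KO 2, against 204 reads in WT and 190 reads in Hez. Ear1 was thus highest in KO 1 and lowest in KO 2, and its log2 fold of 0.05 against WT had an interval from -0.53 to 0.64. The ratio of Ear2 to Ear1 reads was 5.24 and 8.54 in KO 1 and KO 2, against 5.71 in WT and 5.50 in Hez.

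Several of these genes have close copies, and the available sources do not say how the authors assigned reads that match more than 1 gene. In GENCODE M21 the Ear1 and Ear2 transcripts were 96.2% identical, and 57.4% of the 50-base stretches of Ear1 and 41.5% of those of Ear2 occur in another gene's transcript. Separate values of Ear1 and Ear2 are therefore uncertain. For Chil3 29.4% of its 1490 such stretches were shared, 275 with its neighbour Chil4 and 217 with Gm6522. The Chil4 transcript was 94.3% identical. For Itgax 9.61% were shared, with Itgad, which had 3 to 7 reads per library. For Siglecf the share was 0.235%, and for Marco, Mrc1, Pparg, Atp6v0d2 and Krt79 it was 0.

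The class A scavenger receptor MARCO and the mannose receptor encoded by Mrc1 bind microbes and particles at the cell surface. Marco (chromosome 1, 120402267 to 120432753) had 266 and 290 reads in KO 1 and KO 2, against 261 reads in WT and 240 reads in Hez. Its 95% Poisson intervals overlapped between KO 1 (14.4 to 18.4 CPM) and WT (14.2 to 18.2 CPM). The Marco log2 fold was 0.10 against WT (SE 0.191) and 0.25 against Hez (SE 0.192), and neither passed in edgeR (adjusted p = 0.996 against WT). Mrc1 (chromosome 2, 14234203 to 14336868) had 1770 and 1864 reads in KO 1 and KO 2, against 1689 reads in WT and 1571 reads in Hez. Its log2 fold was 0.12 against WT (SE 0.105) and 0.25 against Hez (SE 0.105). Marco and Mrc1 had the most alike profiles of all pairs among the 10 genes, with a distance of 0.0372 between their centred log2 CPM over the 4 libraries, and Ear2 and Itgax came next at 0.0891.

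Siglecf encodes a sialic acid-binding receptor and Itgax the integrin alpha chain CD11c, the surface pair commonly used to sort mouse alveolar macrophages. Itgax (chromosome 7, 127728719 to 127749829) had 1161 and 1241 reads in KO 1 and KO 2, against 965 reads in WT and 910 reads in Hez. This was 71.4 and 78.1 CPM in the KO libraries, against 59.5 CPM in WT and 55.0 CPM in Hez, and the 4 Poisson intervals left a gap between KO and the other libraries. Itgax had a log2 fold of 0.33 against WT (SE 0.111, edgeR adjusted p = 0.781) and 0.44 against Hez (SE 0.112, edgeR adjusted p = 0.717). Siglecf (chromosome 7, 43000765 to 43008955) had 312 and 257 reads in KO 1 and KO 2, against 254 reads in WT and 215 reads in Hez. KO 2 and WT were close, at 16.2 CPM in KO 2 against 15.7 CPM in WT. The Siglecf log2 fold was 0.17 against WT (SE 0.201) and 0.44 against Hez (SE 0.205), neither of which passed in edgeR.

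Pparg encodes the nuclear receptor that directs the lipid-handling programme of alveolar macrophages. Pparg (chromosome 6, 115337912 to 115467360) had 208 and 240 reads in KO 1 and KO 2, against 186 reads in WT and 208 reads in Hez. KO 1 and Hez had the same number of reads, and after scaling stood at 12.8 CPM in KO 1 against 12.6 CPM in Hez. The log2 fold was 0.28 against WT (SE 0.220, edgeR adjusted p = 0.996) and 0.15 against Hez (SE 0.217), and neither passed.

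Atp6v0d2 encodes a d subunit of the vacuolar proton pump that acidifies lysosomes, and Krt79 a type II keratin. Atp6v0d2 (chromosome 4, 19876841 to 19922605) had 772 and 671 reads in KO 1 and KO 2, against 726 reads in WT and 532 reads in Hez. WT lay between the KO libraries, and Hez lay below all others. Its log2 fold was 0.00115 against WT (95% interval -0.30 to 0.31) and 0.48 against Hez (SE 0.136, edgeR adjusted p = 0.815). Krt79 (chromosome 15, 101837767 to 101848759) had 353 and 344 reads in KO 1 and KO 2, against 264 reads in WT and 176 reads in Hez. KO 1 and KO 2 were the closest to each other of any of the 10 genes, at 21.7 and 21.6 CPM, against 16.3 CPM in WT and 10.6 CPM in Hez. Krt79 had the largest log2 fold of the 10 against Hez, 1.02 (SE 0.189, edgeR adjusted p = 0.505), and 0.41 against WT (SE 0.180, edgeR adjusted p = 0.967).

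**Figure D2:**
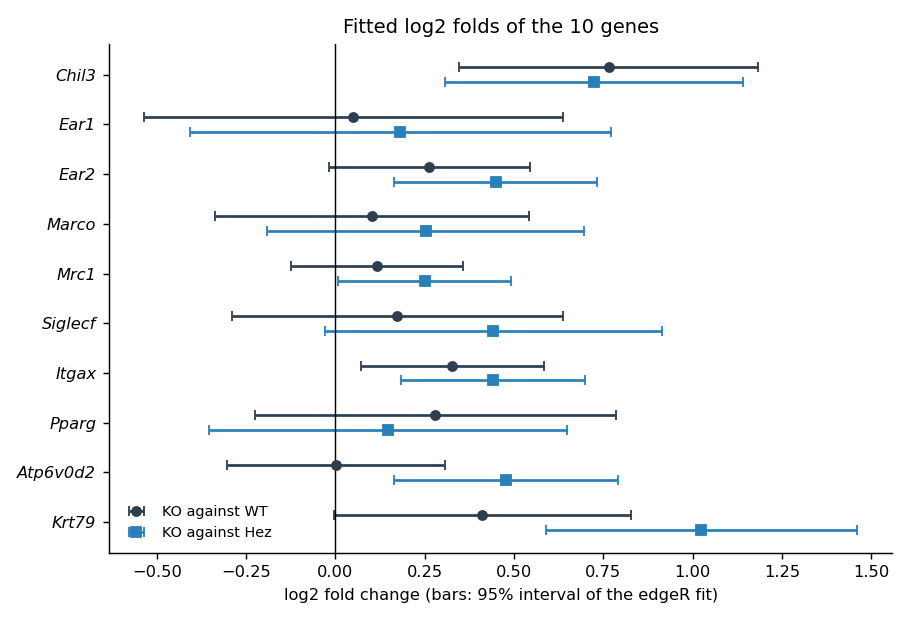
edgeR log2 folds of the 10 genes (x axis) for KO against WT (circles) and KO against Hez (squares), with 95% intervals as bars and the genes by role on the y axis. Chil3 and Itgax have intervals above 0 in both comparisons, and the Atp6v0d2 point against WT lies at 0.00115.

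Per transcript length the genes spanned a wide range. Averaged over the 4 libraries, Chil3 stood at 423 FPKM (read counts scaled by gene length and library total) and Ear2 at 107 FPKM. Ear1 at 17.2, Mrc1 at 16.7, Atp6v0d2 at 15.3 and Itgax at 13.7 FPKM followed within a narrow band. Marco at 8.47, Siglecf at 5.74, Pparg at 4.40 and Krt79 at 3.70 FPKM were the lowest. The levels of Ear1, 14.9 to 20.7 FPKM, overlapped those of Mrc1, 14.9 to 18.4 FPKM, so their order is not separated by the spread between libraries.

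The Hez library was the lowest of the 4 for 7 of the 10 genes, against 25.4% of all tested genes. It lay below WT for 8 of them, against 50.4% of all tested genes, with a median log2 difference of -0.14 beside -0.00229 over all. The differences ran from -0.61 for Krt79 to 0.13 for Pparg, and the 2 genes not lower were Pparg and Chil3. Hez against WT was described without a test. KO 2 was the highest library for 6 of the 10 genes and KO 1 for the other 4, against 26.4% and 24.6% of all tested genes.

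**Figure D3:**
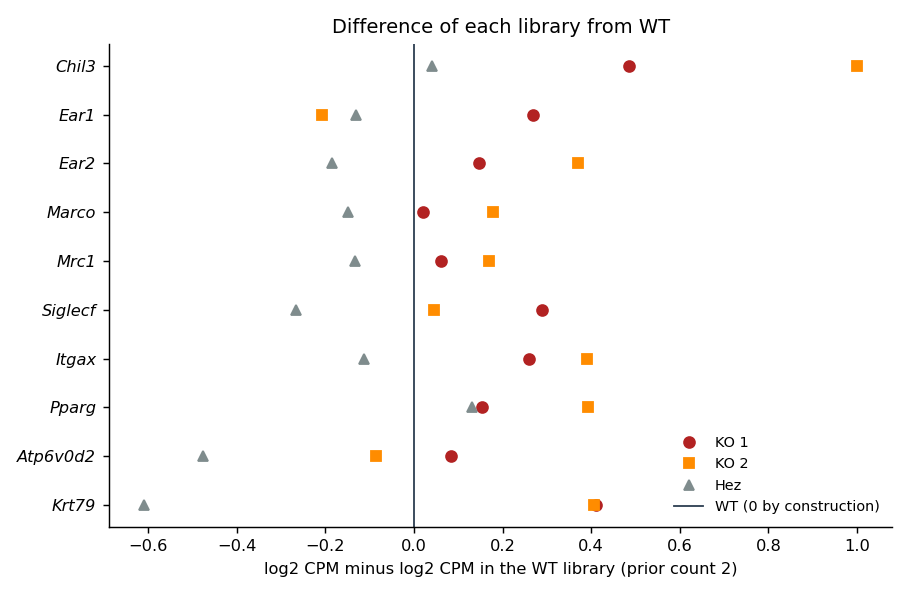
Difference of each library from WT in log2 CPM (x axis) for the 10 genes (y axis), with circles for KO 1, squares for KO 2 and triangles for Hez; WT is 0 by construction. KO 1 lies right of 0 for all 10 genes, KO 2 for 8, and Hez lies left of 0 for 8.

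KO 2 stood apart for relatives of Chil3 and for genes of alternative macrophage activation, the response of macrophages to interleukins of type 2 immunity. Chil4, which encodes the near-identical Ym2, had 2 and 859 reads in KO 1 and KO 2, against 29 reads in WT and 0 reads in Hez. Chia1, the acidic chitinase, had 1333 and 4315 reads in KO 1 and KO 2, against 919 reads in WT and 841 reads in Hez. Retnla, which encodes the secreted protein RELM-alpha, had 1986 and 14113 reads in KO 1 and KO 2, against 1993 reads in WT and 896 reads in Hez. For these 3 genes KO 1 was far nearer to WT than to KO 2, and none passed in edgeR (adjusted p = 0.812 for Chia1, 0.984 for Retnla and 0.996 for Chil4 against WT). Reads counted as Chil4 equalled 5.31% of those counted as Chil3 in KO 2. How many Chil4 reads were counted as Chil3 cannot be read from these counts. Of the 15 tested genes of the alternative activation list, 10 were highest in KO 2, against 26.4% of all tested genes. The median log2 difference of these genes from WT was -0.01 in KO 1, 0.94 in KO 2 and -0.09 in Hez. Their part in the Chil3 level of KO 2 was not tested.

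**Figure D4:**
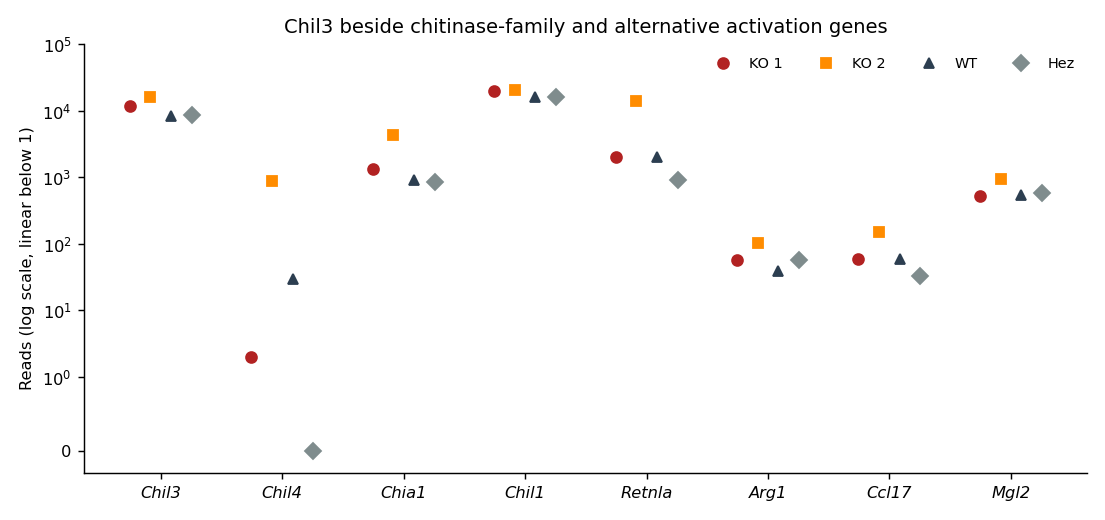
Read counts (y axis, log scale, linear below 1) of Chil3, its relatives Chil4, Chia1 and Chil1, and the alternative activation genes Retnla, Arg1, Ccl17 and Mgl2 in KO 1 (circles), KO 2 (squares), WT (triangles) and Hez (diamonds); Ccl17 and Mgl2 were chosen after their values were seen. KO 2 is highest for every gene shown, at 859 reads for Chil4 where Hez has 0, but the genes shown are a selection. Of all 15 tested alternative activation genes 10 were highest in KO 2, 4 in KO 1 and 1 in WT. Of the 5 tested chitinase-family genes besides Chil3, 4 were highest in KO 2 and 1 in Hez (KO 2 was highest for 26.4% of all tested genes).

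Of the 7 chitinase-family genes besides Chil3, 5 were tested and 0 passed. Chil1, an abundant chitinase-like gene of lung epithelium, had 19791 and 20673 reads in KO 1 and KO 2, against 15960 reads in WT and 16064 reads in Hez, with a log2 fold of 0.35 against WT (edgeR adjusted p = 0.402). Il33, the alarmin gene that drives type 2 responses, had 2760 and 3060 reads in KO 1 and KO 2, against 1897 reads in WT and 2099 reads in Hez. Unlike Chil4 and Retnla, Chil1 and Il33 were similar in both KO libraries. In the RNase A family 5 of the 12 genes present besides Ear1 and Ear2 were tested and 0 passed. Ear6 had 41 and 12 reads in KO 1 and KO 2, against 28 reads in WT and 24 reads in Hez, so that KO 2 was lowest for it as for Ear1. Rnase2a had 0 and 60 reads in KO 1 and KO 2, against 2 reads in WT and 1 read in Hez.

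Other markers of alveolar macrophages lay on both sides of WT. Of 25 further markers 24 were tested, 0 passed, 15 had a positive log2 fold against WT and the median was 0.05. Against Hez 19 were positive, with a median of 0.19. Both KO libraries exceeded WT and Hez for 10 of the 24 (17.5% of all tested genes), and lay below both for 3 (16.3%). The chemokine gene Ccl6 stood at 178 and 148 CPM in KO 1 and KO 2, against 126 CPM in WT and 111 CPM in Hez. The 3 below both were Fabp4 (log2 fold -0.93 against WT), Lpl (-0.29) and Slc7a2 (-0.19). Of these, Fabp4 and Lpl are also expressed by fat cells. All 8 fat cell markers lay below WT and Hez in both KO libraries, against 16.3% of all tested genes. Their summed level was 62.7 and 53.1 FPKM in KO 1 and KO 2, against 121 FPKM in WT and 127 FPKM in Hez, with none at 0 reads. Cfd, the fat cell complement factor adipsin, passed the threshold (log2 fold -1.09, edgeR adjusted p = 0.0482). The part of fat cell RNA in the values of Pparg, Fabp4 and Lpl was not tested.

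Markers of other leukocytes moved in different ways. Of 13 genes shared by macrophages or all leukocytes, 12 had a positive log2 fold against WT, with a median of 0.22, and 10 were above both WT and Hez in both KO libraries (17.5% of all tested genes), while 0 passed. Against Hez 12 were positive, with a median of 0.33. Adgre1, which encodes the macrophage antigen F4/80, had a log2 fold of 0.39 and the Fc receptor subunit gene Fcer1g 0.45 (edgeR adjusted p = 0.831 for each), and the efferocytosis receptor gene Mertk had -0.51 (edgeR adjusted p = 0.323). In this list 12 of 13 genes were highest in KO 1, where 4 of the 10 alveolar macrophage genes and 24.6% of all tested genes were. Its summed level was 5730.0 and 4807 FPKM in KO 1 and KO 2, against 4701 FPKM in WT and 4576 FPKM in Hez.

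Neutrophil markers lay apart between the KO libraries, with summed levels of 489 and 139 FPKM in KO 1 and KO 2, against 333 FPKM in WT and 281 FPKM in Hez. Eosinophil markers, including the granule protein genes Prg2 and Epx, summed to 16.3 and 8.29 FPKM in KO 1 and KO 2, against 16.5 FPKM in WT and 17.6 FPKM in Hez. Of the 6 eosinophil markers 4 were lowest in KO 2, against 25.4% of all tested genes, and 2 were lowest in WT. The 11 interstitial macrophage and monocyte markers had a median log2 fold of 0.03 against WT, with 6 positive, and of 0.41 against Hez, with 10 positive. Over all tested genes the median against Hez was 0.00989, with 52.5% positive. The 11 markers summed to 224 and 192 FPKM in KO 1 and KO 2, against 207 FPKM in WT and 170 FPKM in Hez. The 8 dendritic cell markers had a median of 0.05 against WT, with 5 positive, and of 0.47 against Hez, with 6 positive. They summed to 51.4 and 64.9 FPKM in KO 1 and KO 2, against 47.9 FPKM in WT and 46.5 FPKM in Hez. Among them Ccr7, the lymph node homing receptor, had a log2 fold of 0.55 and the lectin gene Cd209a 0.74. None of the genes in these 4 lists passed, none of their markers was at 0 reads in any library, and their part in the levels of the 10 genes was not tested.

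**Figure D5:**
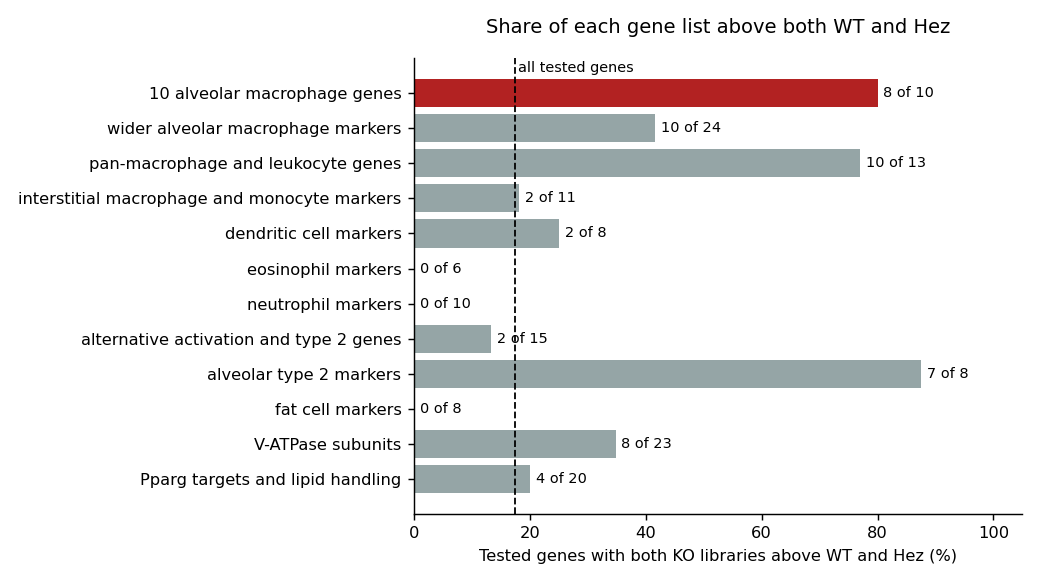
Share of tested genes whose level in both KO libraries exceeds WT and Hez (x axis, percent, from 0) for the 10 alveolar macrophage genes and 11 other lists (y axis), with counts beside the bars and a dashed line at the share of all tested genes, 17.5%. The 10 genes (8 of 10), the pan-macrophage and leukocyte genes (10 of 13) and the alveolar type 2 markers (7 of 8) lie far to the right, and the eosinophil, neutrophil and fat cell lists are at 0.

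The pathways that act on these genes showed small values. GM-CSF and TGF-beta signalling, which mature alveolar macrophages, had 16 tested genes with 12 positive log2 folds against WT, a median of 0.07 and 0 past the threshold. Csf2rb, the shared beta chain of the GM-CSF receptor, stood at 60.1 and 51.3 CPM in KO 1 and KO 2, against 44.1 CPM in WT and 46.5 CPM in Hez. Of 19 macrophage transcription factors 11 were positive, with a median of 0.06, and 0 passed. The list held Cebpb (0.43), Spi1 (0.32), which encodes PU.1, and Egr2 (-0.35), which lay below WT and Hez in both KO libraries. Genes that respond to the Pparg product or handle lipid had 11 of 20 positive and a median of 0.08, with 0 passed. Against Hez 9 of the 20 were positive, with a median of -0.03. In edgeR against WT 3 of the 20 had an unadjusted p below 0.05 (5.18% of all tested genes), all with negative folds. Plin2, a lipid droplet coat gene, had a positive log2 fold of 0.29 against WT.

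Relatives of the receptors and of the intracellular genes gave mixed values, with 0 passed. The 23 tested subunits of the proton pump had a median log2 fold of 0.04 against WT with 14 positive, and the 16 scavenger receptor genes a median of 0.00223 with 8 positive. Against Hez the medians were 0.05 with 16 positive for the subunits, and 0.21 with 13 positive for the scavenger receptor genes. In the Siglec family 5 of 7 tested genes were positive against WT, with a median of 0.25. Against Hez 3 of the 7 were positive, with a median of -0.0093. In the CD11 and beta 2 integrin family 3 of 3 were positive in both comparisons, with a median of 0.17 against WT and 0.37 against Hez. Itgb2, which encodes the beta chain that pairs with CD11c, had 2396 and 2007 reads in KO 1 and KO 2, against 1963 reads in WT and 1715 reads in Hez. Of 12 other type II keratins 5 were tested and 0 passed. Krt8, an epithelial keratin, had 2086 and 2096 reads in KO 1 and KO 2, against 2358 reads in WT and 1741 reads in Hez, so that it lay below WT where Krt79 lay above.

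The genes with the profile most like that of Chil3 over the 4 libraries were sought among 14115 genes by distance of centred log2 CPM. They were Slc30a2, Klrg1, Mmp12, Slc5a1 and Apol7c, at distances of 0.0813 to 0.169. With only 4 values per gene and many genes searched, some profiles lie close to any other, so nearness is a description only. The genes searched had at least 1 CPM on average. Slc30a2 (1.35 and 1.95 CPM in KO 1 and KO 2, 0.864 in WT, 0.968 in Hez) and Klrg1 (2.09 and 2.83, 1.42, 1.39) were near that floor. Mmp12, the macrophage elastase gene, stood at 7.74 and 10.3 CPM in KO 1 and KO 2, against 5.43 CPM in WT and 5.57 CPM in Hez. Nearest to the mean profile of the 10 genes were AI467606, Cd74, Vcam1, Itgb7 and Tgfb3, at 0.0334 to 0.0492. Cd74, the invariant chain of MHC class II, stood at 725 and 724 CPM in KO 1 and KO 2, against 601 CPM in WT and 529 CPM in Hez.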

How the data were processed

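Lung RNA from 4 libraries was measured by RNA sequencing. The deposited table holds read counts per gene, unnormalised, for 21931 genes, per the file headers. FPKM columns were deposited beside them by the authors; each of the 66024 values above 0 equals the count over library total and gene length (relative tolerance 1e-06). Per the submitters' processing notes, GRCm39 was used. Not given in the sources used here were the aligner, the counter and the strand setting. Overlapping genes and near-identical copies may thus share reads.

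In edgeR 4.0.16 (R 4.3.3), filterByExpr with a minimum count of 10 kept 15055 genes, and TMM factors were 0.993 to 1.01. CPM values use these scaled totals, and levels set as log2 CPM use a prior count of 2. The two-sided edgeR quasi-likelihood test was fitted to all 4 libraries in 3 groups (1 residual degree of freedom, 7.02 prior) or with WT and Hez as 1 group (2 residual, 5.99 prior), with Benjamini-Hochberg adjustment over all tested genes and a threshold of 0.05. Standard errors thus draw largely on other genes, and the lone WT and Hez libraries are assumed to vary like the KO pair. The procedure was tested on simulated data. Alternatives were other scalings and filters, DESeq2 1.42.0, limma 3.58.1 on log2(FPKM + pseudocount) and leaving out libraries. The 10 genes and the 22 lists (243 genes, 240 in the table) were chosen with earlier results of these data known. Named genes were drawn from the 10, Dnah9, up to 4 per list with the smallest p against WT, the 10 genes' families, any gene past the threshold, and the 5 nearest profiles. Not all of these are named, and the relatives shown are not complete. Slc7a2 and Egr2 were added because both KO libraries lay below WT and Hez for them. Promoters came from RefSeq (GRCm38.p6) and transcripts from GENCODE M21, matched by symbol, and no coordinate was converted between builds. Proteins were not used here.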

Additional observations from a re-analysis of the deposited data

How the results depend on the processing

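No paired analysis was possible because the replicate numbers only name the libraries and WT and Hez hold 1 library each. The folds of the 10 genes were recomputed under 12 alternatives against WT, 12 against Hez and 13 with WT and Hez as 1 group. In the last, leaving out WT or Hez repeats folds of the other comparisons, so not all are distinct. Of these 370 folds, 358 were positive and 12 turned negative. Direction and side of the threshold were kept by 356, or these moved by less than the replicate spread where no test was possible. A gene without a DESeq2 adjusted p was counted as not passing. Atp6v0d2 against WT, at 0.00115, turned to -0.000056 with DESeq2-style size factors, -0.0114 with library totals only, -0.0116 at a mean of 10 CPM, -0.000115 with DESeq2, and -0.0132, -0.0136, -0.0128 and -0.0132 with limma on log2 FPKM (pseudocount 0.5, 0.1, 1, and 0.5 without a filter), and was -0.086 without KO 1 and 0.082 without KO 2.

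Leaving out libraries mattered most with WT and Hez as 1 group. Without KO 1, Chil3 passed (log2 fold 0.98, edgeR adjusted p = 0.000482) as 1 of 107 genes called, and Ear1 stood at -0.15 (0.33 without KO 2). Without KO 1 Ear1 was -0.21 against WT and -0.084 against Hez, and without KO 2 it was 0.27 and 0.40. Without KO 2 Chil3 did not pass (0.46, edgeR adjusted p = 0.150). Over the libraries left out, 1 to 107 genes (107 without KO 1, 24 without KO 2, 1 without WT, 8 without Hez) and 0 to 1 of the 10 were called, and the median of the 10 ran from 0.22 to 0.44. For KO against WT that median ran from 0.21 to 0.27, and for KO against Hez from 0.36 to 0.44. It was 0.41, 0.39 and 0.41 against Hez with limma (pseudocount 0.5, 1, and 0.5 without a filter), and 0.23 against both (pseudocount 1).

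The 8 genes called against WT became 4 without a filter, 4 at a mean of 10 CPM, 16 with DESeq2, 1 with limma at each pseudocount and 0 without its filter. The 1 gene against Hez became 7 with DESeq2 and 0 with limma at pseudocounts 0.5 and 0.1 and without its filter. The 2 genes against both became 1 at a mean of 10 CPM, 34 with DESeq2, 1 with limma at 0.5 and 0.1, and 0 at 1 and without its filter. The causes were not tested. Chosen after seeing the data, the count of 8 genes above WT and Hez was 8 without KO 1 (34.9% of all genes), 10 without KO 2 (33.6%), and 8 with totals only or FPKM (16.2%). The counting intervals of KO 1 and WT overlapped for 7 of the 10 genes and were separate for Chil3, Itgax and Krt79. The share of all tested genes with separate intervals was not computed, so these counts are a description only.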

Other observations

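Alveolar type 2 cells, the epithelial cells that make the surfactant cleared by alveolar macrophages, gave the highest share above WT and Hez of the 12 lists plotted above. All 8 of their markers had positive log2 folds against WT (51.1% of all tested genes), with a median of 0.21 (0.15 against Hez, with 7 positive). Of these, 7 were above both WT and Hez in both KO libraries (17.5% of all tested genes). In edgeR against WT 0 passed, and 6 had an unadjusted p below 0.05 (5.18% of all tested genes). Cxcl15, a lung chemokine gene, stood at 2260.1 and 2228 CPM in KO 1 and KO 2, against 1863 CPM in WT and 1882 CPM in Hez. KO 1 was the highest library for 8 of the 8 markers, against 24.6% of all tested genes. Of 12 genes of surfactant clearance and alveolar proteinosis 9 were positive, with a median of 0.15 and 0 past the threshold.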
